A study of Rattus norvegicus with 4 samples.

Results

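The 68 genes described here encode ligands and receptors of axon guidance. They are the semaphorins with their plexin and neuropilin receptors, the ephrins with the Eph receptors, the Slits with the Robo receptors, and the netrins with Dcc and the Unc5 receptors. They were taken by gene symbol from the 32883 genes listed in the rat count table, and 59 of them were expressed at a level that could be tested. RNA came from the carotid body (CB), a chemosensory organ beside the carotid bifurcation in which glomus cells respond to low oxygen. The CBs were taken from untreated Sprague-Dawley rats, and 4 libraries were compared. The 2 neonatal libraries were made from rats aged 5 days, with 6 pups pooled in each. The 2 adult libraries were made at day 21, around weaning, with 3 rats pooled in each. The word adult for that age is the study's own, since the labels give only days. These pool sizes and the number of libraries are those of the sample labels and the deposited table. The study's methods give larger pools and more replicates per age, so fewer replicates enter here than the study describes. Females and males were pooled, and each value is therefore a mean over several animals and over every cell type of the dissected tissue. In such bulk RNA, fewer cells of a type and less RNA per cell cannot be told apart.

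Axon guidance molecules steer growing nerve fibres by attraction or repulsion, and the same molecules pattern blood vessels, lymphatics and migrating neural crest cells. Semaphorins act through plexins, and the secreted class 3 semaphorins mostly need a neuropilin as well. Ephrins are held in the membrane, the A class by a lipid anchor and the B class by a transmembrane stretch, so they signal to Eph receptor tyrosine kinases by contact between neighbouring cells. Slits are secreted and act on Robo receptors, mainly as repellents. Netrins attract axons through Dcc and repel them through Unc5 receptors. The CB receives its sensory nerve from the glossopharyngeal nerve and sympathetic fibres from the nearby superior cervical ganglion, and it is one of the most densely perfused tissues of the body. The comparison asks which of these cues differ between a neonatal CB, whose response to hypoxia is weak, and one at weaning, whose response has matured.

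Levels are given as normalised CPM, which are counts per library size in the usual CPM unit, scaled by edgeR's TMM factors (trimmed mean of M values), and in the order neonate replicate 1, neonate replicate 2, adult replicate 1, adult replicate 2 unless stated. Totals ran from 36286178 to 39476111 counts per library, so a floor of 3 counts lies between 0.0734 and 0.0843 normalised CPM, which covers counting error only. Log2 fold changes are neonate over adult, with the standard error (SE), and the adjusted p are Benjamini-Hochberg values over 13843 genes from edgeR's quasi-likelihood test. To be called, a gene needed an adjusted p under 0.05 together with a difference of 2-fold or more. With 2 libraries per age, the smallest two-sided p of an exact permutation test is 0.333 for any one gene, so none was run. Mitochondrially encoded genes took 18.7% and 15.6% of the neonatal counts against 9.06% and 9.08% of the adult counts. Scaling by library size in place of TMM shifted the typical gene towards adults, with a median log2 fold change of -0.25 in place of -0.0029, and directions are given relative to that where they turn.

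The tissue label was checked against marker lists. Of the 13 glomus cell markers, all were tested, and tyrosine hydroxylase (Th), which makes catecholamines, stood at 1017, 835, 1403 and 1132 normalised CPM. The summed level of that list was 8594 and 7216 in neonates and 8775 and 7339 in adults, so the ages overlapped. Neonate replicate 1 stood apart in some other lists. The erythroid list summed to 12915 and 7338 normalised CPM in neonates and to 2811 and 2454 in adults. Pth, the parathyroid hormone gene, was at 1769 and 208 normalised CPM in the neonatal libraries and at 0 counts in both adult libraries, and the Schwann and sustentacular glia list summed to 1654 in neonate replicate 1 against 2641 to 3073 in the other libraries. The counts of called members are therefore also given without each library in turn in the closing observations.

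Of the 59 members tested, 8 were called lower in neonates (13.6%) and 3 were called higher in neonates (5.08%). Among all genes tested, 13.2% were called lower and 7.68% higher. The members called lower in neonates, and so higher in adults, were the netrins Ntn1 and Ntn4, the netrin receptors Unc5a and Unc5c, the Slit receptor Robo1, the class 3 semaphorins Sema3a and Sema3d, and Plxna4. Those called higher in neonates were the plexin Plxnb3 and the ephrins Efna4 and Efnb3. By adjusted p alone, with no minimum fold, 26 members were lower in neonates (44.1%) and 8 were higher (13.6%), against 31.1% and 31.2% of all genes tested. In either direction, 34 of the 59 passed the adjusted p and 11 were called, where 62.3% and 20.8% of all genes did. The median log2 fold change of the members was -0.33. With library size in place of TMM it was -0.57, and 15 members were called lower and 3 higher. In 46 of the 59 members (78%) both neonatal libraries lay on one side of both adult libraries, which was so for 83% of all genes tested. Of these members, 32 were below in neonates and 14 above, against 41.7% and 41.3% of all genes.

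**Figure D1:**
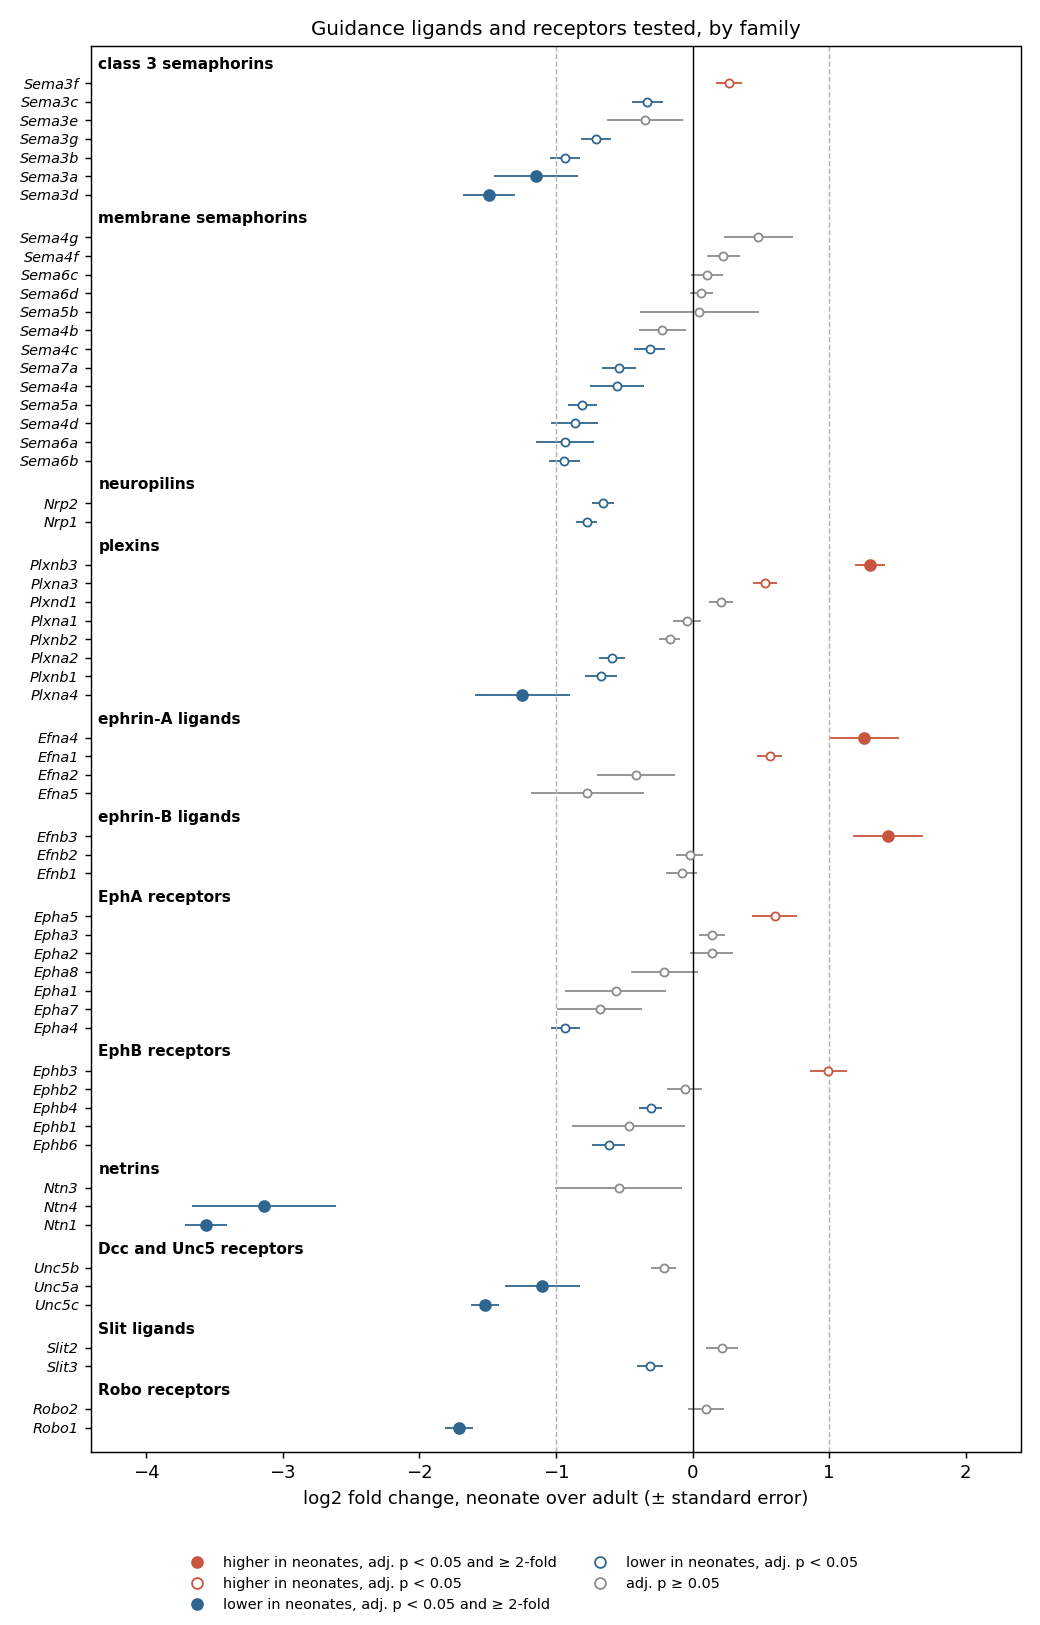
Log2 fold change, neonate over adult, of the 59 members tested, grouped by family, with bars of 1 standard error and dashed lines at 2-fold. Ntn1 and Ntn4 lie farthest to the left, near -3.56 and -3.14, while plexins and both ephrin families hold the points beyond 2-fold on the right.

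**Figure D2:**
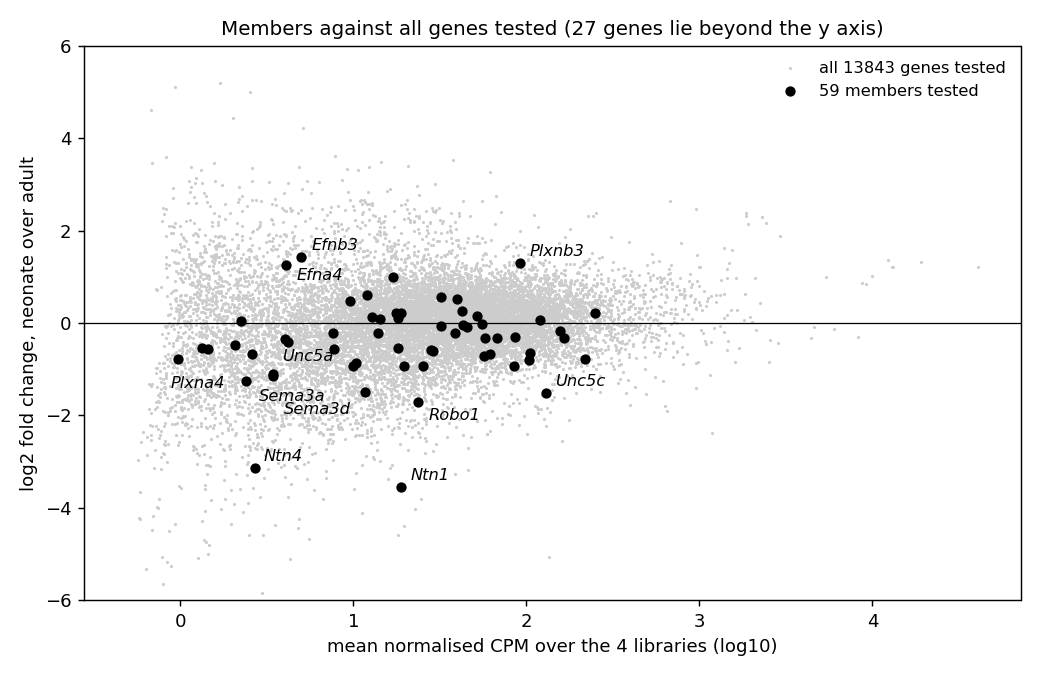
Log2 fold change, neonate over adult, against the mean normalised CPM over the 4 libraries on a log10 axis, for all 13843 genes tested (grey) and for the 59 members (black), with the called members named. Ntn1 lies near the lower edge of the cloud at its level, and most other members lie within it.

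Several marker lists moved with age, and they are given here beside the counts. Of all 13843 genes tested, 13.2% were called lower in neonates and 7.68% higher, and 31.1% were lower and 31.2% higher by adjusted p. Lymphatic endothelial markers summed to 341 and 408 normalised CPM in neonates and 928 and 1042 in adults, with 4 of 7 genes called lower in neonates. Fibroblast markers summed to 13160 and 15701 against 17080 and 18938, with 2 of 8 called lower, and smooth muscle and pericyte markers to 1847 and 1941 against 2491 and 2634, with 3 of 10 called lower. Macrophage markers summed to 110.7 and 123.25 against 189 and 181, with 3 of 9 called lower. By adjusted p, 5 lymphatic genes were lower in neonates and 1 was higher (Pdpn, log2 fold change 0.42). Of the fibroblast genes, 6 were lower and 0 higher. The fibroblast sum was mostly Col1a1 and Col3a1, and neither passed (edgeR adjusted p = 0.38 and 0.071). In the smooth muscle list 6 were lower, most of all Rgs5 (means of 283 against 988), and 2 were higher, Mcam (0.63) and Pdgfrb (0.31). The gap in Rgs5 alone was at least as large as that in the sum of this list. Without Rgs5 the smooth muscle sum is therefore not lower in neonates. Of the macrophage genes, 7 were lower and 1 was higher (Aif1, 0.47). Of the 5 adipocyte genes tested, 3 were called lower in neonates. Their log2 fold changes were -2.51 for Adipoq, -2.30 for Plin1 and -1.95 for Cidec. Cidec, at 32 and 30 counts in neonates, reached the minimum level for testing through the adult libraries alone, so its call is no support for that count. The summed level of the list, mostly Fabp4, was 140.31 and 186 in neonates and 119 and 165 in adults. Fabp4 itself was higher in neonates by adjusted p (log2 fold change 0.51). Of the 12 glia genes tested, Gfap (-1.96) and Ncmap (-2.19) were called lower. Ncmap, at 4 and 24 counts in neonates, was also tested through the adult libraries alone. By adjusted p, 4 glia genes were lower in neonates and 2 were higher, namely Sox10 (0.31) and Erbb3 (0.42). The counts of lower glia genes were near the shares of all genes, and nothing is read from them. In the other direction, all 10 proliferation markers were called higher in neonates, at sums of 972 and 843 against 281 and 276, as were all 6 erythroid genes. Neuron markers summed to 4215 and 3935 against 3467 and 2835, with 4 of 13 called higher. These were Tubb3, Nefl, Nefm and Nefh, which encode a neuronal tubulin and the neurofilaments. By adjusted p, 9 neuron markers were higher in neonates and 2 were lower, namely Elavl3 (-0.53) and Syt1 (-0.43). None of the 11 blood endothelial markers was called (7 had an adjusted p under 0.05, below 2-fold and in both directions), and their sums of 1921 and 1889 against 1909 and 1856 were level. The part of these shifts in the results on the members was not tested.

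**Figure D3:**
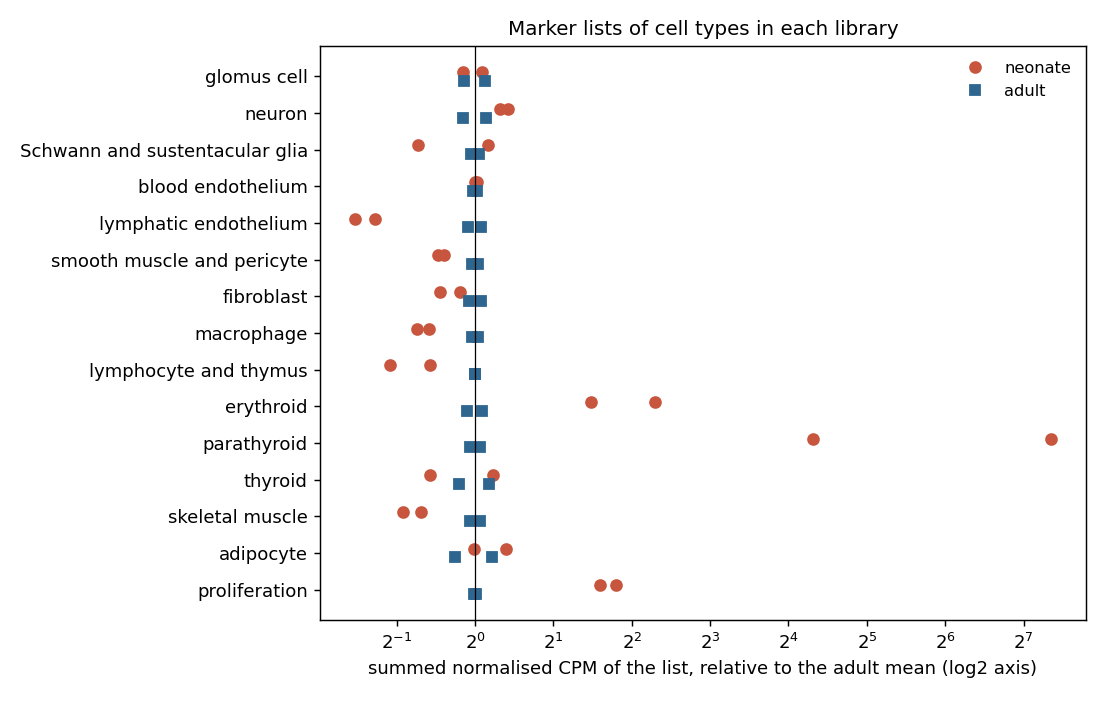
Summed normalised CPM of each marker list in each library, relative to the mean of the 2 adult libraries, on a log2 axis. Parathyroid, erythroid and proliferation lists lie to the right in neonates, lymphatic endothelial markers lie to the left, and blood endothelial and glomus cell markers lie close to 1.

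Netrins Ntn1 and Ntn4 and the netrin receptors Unc5a and Unc5c were called lower in neonates. Ntn1 (ENSRNOG00000003947) encodes netrin-1, the classical secreted cue that attracts or repels axons according to the receptor. It was at 2.98 and 2.92 normalised CPM in the neonatal libraries and at 38.3 and 31.2 in the adult libraries. The ages were far apart and the replicates of each age close together. The difference was 11.8-fold, a log2 fold change of -3.56 (SE 0.154, edgeR adjusted p = 1.4e-06), and 69 of the 13843 genes tested had a more negative value. Ntn4, a netrin found in basement membranes, was much lower in level and less even between replicates, at 0.843 and 0.250 normalised CPM in neonates and 3.55 and 6.11 in adults. Those values stand on 30 and 9 counts against 145 and 243 counts. Ntn4 reached the minimum level for testing through the adult libraries alone, where it was high, so its place among the 8 members called lower was decided in part by that filter and is no support for the count. The log2 fold change of Ntn4 was -3.14 (SE 0.525, edgeR adjusted p = 0.00082), and it was -4.24 without neonate replicate 1 and -2.50 without neonate replicate 2. Without either adult library it was not tested. Ntn3 was at 1.55, 0.639, 1.37 and 1.81 normalised CPM, with ages that overlapped and an edgeR adjusted p of 0.34 (log2 fold change -1.30 and edgeR adjusted p = 0.027 when neonate replicate 1 was left out). No read was counted for Ntn5 in any library.

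The repulsive netrin receptor Unc5c (ENSRNOG00000029071) was at 62.1 and 72.2 normalised CPM in neonates and at 207 and 178 in adults. The lower adult library was more than double the higher neonatal library, with a log2 fold change of -1.52 (SE 0.105, edgeR adjusted p = 8.1e-06), or 2.87-fold. Unc5a had 2.39 and 1.97 normalised CPM in neonates and 4.72 and 4.62 in adults, a log2 fold change of -1.10 (SE 0.275, edgeR adjusted p = 0.0072). It stayed past the adjusted p in every library left out, but its log2 fold change was -0.95, short of 2-fold, without neonate replicate 2. Unc5b, which is known for guiding the tips of growing vessels, had 35.9, 35.4, 39.3 and 43.3 normalised CPM and did not pass (log2 fold change -0.21, SE 0.0939, edgeR adjusted p = 0.076). Dcc, the attractive netrin receptor, had 9, 1, 9 and 10 counts and Unc5d had 0, 1, 6 and 8 counts, and neither reached the level for testing. Neo1, a relative of Dcc that binds netrins and repulsive guidance molecules and was not among the 68 genes, was at 33.9 and 36.9 normalised CPM in neonates and at 66.2 and 70.4 in adults, with a log2 fold change of -0.95 (SE 0.0951, edgeR adjusted p = 4.9e-05).

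**Figure D4:**
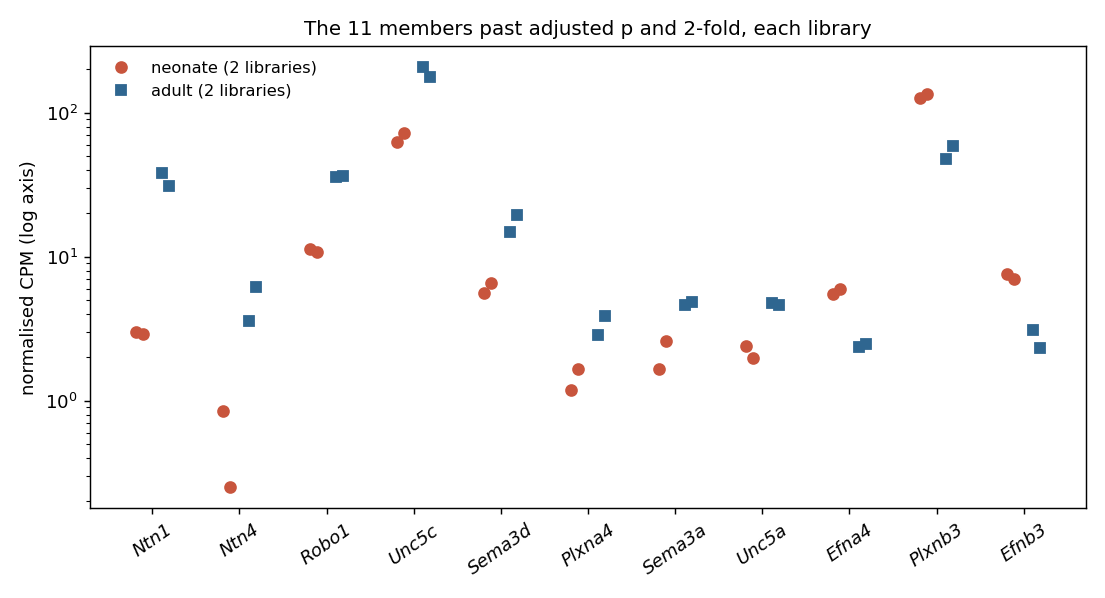
Normalised CPM of the 11 called members in each of the 4 libraries, on a log axis, with neonates as circles and adults as squares. In all 11 both libraries of one age lie above both of the other, and Ntn4 has the widest gap between replicates.

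Robo1 (ENSRNOG00000029614), a receptor for Slit proteins in axons and in migrating cells, was at 11.2 and 10.7 normalised CPM in neonates and at 35.91 and 36.04 in adults. Replicates differed by less than 1 normalised CPM at either age. The log2 fold change was -1.71 (SE 0.104, edgeR adjusted p = 4.8e-06), or 3.27-fold, and it lay between -1.74 and -1.66 with each library left out in turn. Its close relative Robo2 was at 15.1, 14.4, 13.4 and 14.2 normalised CPM, with a log2 fold change of 0.10 (SE 0.133, edgeR adjusted p = 0.55). Of the Slits, Slit3 was at 56.8 and 63.2 normalised CPM in neonates and 71.5 and 77.6 in adults, a log2 fold change of -0.31 (SE 0.0937, edgeR adjusted p = 0.017). That difference lost its adjusted p when neonate replicate 1 (0.087) or adult replicate 2 (0.095) was left out. Slit2 had 19.1, 18.7, 15.8 and 16.7 normalised CPM and did not pass (log2 fold change 0.22, SE 0.117, edgeR adjusted p = 0.13). Slit1, with 3 to 11 counts per library, could not be tested.

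The sequence before the start of Robo1 is shown because this receptor had one of the smallest p-values of the 59 members (161 of all genes tested had a smaller one) and because RefSeq gives it a pair of starts on the assembly GRCr8, which the gene-level counts add together. Each line holds the 250 bases before 1 start on the plus strand, 5′ to 3′, at chr11:24067706-24067955 and chr11:24714445-24714694. Capitals mark a CCAAT box (CCAAT or its complement ATTGG).
Robo1 first start: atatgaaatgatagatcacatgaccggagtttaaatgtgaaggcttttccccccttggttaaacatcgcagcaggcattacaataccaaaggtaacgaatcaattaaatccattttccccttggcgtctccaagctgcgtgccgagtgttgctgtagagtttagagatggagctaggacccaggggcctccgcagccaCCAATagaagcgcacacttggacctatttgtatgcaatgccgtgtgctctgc
Robo1 second start: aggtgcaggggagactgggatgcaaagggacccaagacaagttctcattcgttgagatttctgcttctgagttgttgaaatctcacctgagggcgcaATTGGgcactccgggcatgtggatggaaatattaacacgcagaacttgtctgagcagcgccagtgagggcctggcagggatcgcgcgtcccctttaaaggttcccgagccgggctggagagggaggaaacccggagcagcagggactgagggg
Besides CCAAT, the GC box GGGCGG, the TATA box TATAAA, the cyclic AMP response element TGACGTCA and the core ACGTG of the hypoxia response element were searched on both strands, and none was found in these windows. The letters of one motif may overlap those of another. Windows were available for 53 of the 68 members, 54 windows in all, and for 33469 starts in the whole table. CCAAT was found in 18 of the 54 member windows (33.3%) and in 34% of all windows, the GC box in 29 (53.7%) and 30.5%, and ACGTG in 9 (16.7%) and 16.6%. TATAAA was found in 0 of the 54 and in 12.9% of all windows, and TGACGTCA in 1 (1.85%) and 1.59%. A match is a string of letters only and was not tested as a binding site.

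All 7 class 3 semaphorins were tested, with a median log2 fold change of -0.71. By adjusted p, 5 were lower in neonates and 1 was higher, where 31.1% and 31.2% of all genes were, and Sema3a, Sema3c and Sema3f lost their adjusted p when single libraries were left out. Sema3d, which guides neural crest cells and venous endothelium, was at 5.62 and 6.55 normalised CPM in neonates and 14.8 and 19.5 in adults. The log2 fold change of this clear separation was -1.49 (SE 0.190, edgeR adjusted p = 0.00017). Sema3a, the archetypal collapsing factor for sensory and sympathetic growth cones, had a low level of 1.66 and 2.61 normalised CPM in neonates and 4.602 and 4.876 in adults, or 59 and 94 counts against 188 and 194. This gave a log2 fold change of -1.15 (SE 0.307, edgeR adjusted p = 0.0100). This call did not survive every library left out. Sema3a fell short of 2-fold when neonate replicate 1 was left out (-0.85), and of the adjusted p when adult replicate 2 was (0.052).

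Among those under 2-fold, Sema3b was at 54.5 and 61.6 normalised CPM in neonates and at 101 and 121 in adults (log2 fold change -0.93, SE 0.107, edgeR adjusted p = 9.8e-05). Sema3g, a semaphorin of arterial endothelium, was at 39.7 and 46.6 against 65.6 and 75.3 normalised CPM (log2 fold change -0.71, SE 0.112, edgeR adjusted p = 0.00061). Sema3c, which had the highest counts of the class, was at 127 and 163 against 179 and 186 normalised CPM. Its log2 fold change of -0.33 (SE 0.112, edgeR adjusted p = 0.029) was -0.15 (0.23) without neonate replicate 1, the library with the lowest value, and -0.33 (0.054) without adult replicate 2. Sema3f was the exception in direction, at 43.8 and 48.4 normalised CPM in neonates against 37.4 and 39.1 in adults (log2 fold change 0.27, SE 0.0949, edgeR adjusted p = 0.034). With library size in place of TMM its log2 fold change was 0.024 (edgeR adjusted p = 0.85), so its difference rested on the scaling. It also lost its adjusted p without neonate replicate 2 and without either adult library, and at a similar fold with DESeq2 (0.27, adjusted p = 0.053), with no filter on low counts (0.24, edgeR adjusted p = 0.071) and with a mean of at least 5 CPM (0.23, edgeR adjusted p = 0.062). Sema3e, the ligand of Plxnd1, was at 3.01, 4.05, 4.95 and 4.05 normalised CPM and did not pass (edgeR adjusted p = 0.30).

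Both neuropilins, the co-receptors for class 3 semaphorins and for VEGF, were lower in neonates. Nrp1 (ENSRNOG00000010744) was at 161 and 162 normalised CPM in neonates and at 270 and 283 in adults, a log2 fold change of -0.78 (SE 0.0769, edgeR adjusted p = 4.6e-05). Nrp2, which binds Sema3f and also marks lymphatic and venous endothelium, was at 83.9 and 79.9 against 124 and 134 normalised CPM, a log2 fold change of -0.65 (SE 0.0792, edgeR adjusted p = 0.00013). Neither reached 2-fold by TMM, and with library size in place of TMM Nrp1 did, at -1.02. For both genes the gap between replicates was much smaller than the gap between ages. Lymphatic endothelial markers, whose sum moved the same way, are given above.

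Of the 13 membrane-bound semaphorins, 7 were lower in neonates by adjusted p, 0 were higher and 6 did not pass, and none was called at 2-fold. Among all genes 31.1% were lower and 31.2% higher, and Sema4a, Sema4c and Sema6a lost their adjusted p when single libraries were left out. Sema6b was at 13.0 and 13.8 normalised CPM in neonates and at 26.2 and 25.2 in adults (log2 fold change -0.94, SE 0.113, edgeR adjusted p = 0.00013). Sema5a, a semaphorin with thrombospondin repeats, was at 67.6 and 83.3 against 138 and 126 normalised CPM (log2 fold change -0.81, SE 0.107, edgeR adjusted p = 0.00021). Sema4d, the ligand of Plxnb1, was at 7.72 and 6.997 against 14.4 and 12.4 normalised CPM (log2 fold change -0.86, SE 0.174, edgeR adjusted p = 0.0023). In each of these 3 the ages were well apart.

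Sema6a was at 6.69 and 7.02 against 10.7 and 15.5 normalised CPM (log2 fold change -0.93, SE 0.212, edgeR adjusted p = 0.0044). Its adult libraries were uneven, and without adult replicate 2 the log2 fold change was -0.67 (edgeR adjusted p = 0.073). Sema4a, Sema4c and Sema7a, the last held by a lipid anchor, had log2 fold changes of -0.55, -0.32 and -0.54, and the first of these lost its adjusted p without neonate replicate 2, adult replicate 1 or adult replicate 2, as did Sema4c without neonate replicate 1 or adult replicate 2. Sema6d, which had the most counts of these semaphorins, was at 121 and 124 normalised CPM in neonates and at 110 and 125 in adults, with ages that overlapped and a log2 fold change of 0.062 (SE 0.0844, edgeR adjusted p = 0.54). Sema4g was higher in neonate replicate 2, at 14.0 normalised CPM, than in the other libraries, at 7.69 to 8.25, and did not pass (edgeR adjusted p = 0.12). It was at 0.83 on the log2 scale, with an edgeR adjusted p of 0.0024, when neonate replicate 1 was left out. Sema4b, Sema4f, Sema5b and Sema6c did not pass either, with log2 fold changes from -0.22 to 0.22.

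The plexins did not move one way. Plxnb3 (ENSRNOG00000061731), a receptor of the B subfamily that is known from oligodendrocytes and other glia and binds Sema5a, was at 126 and 135 normalised CPM in neonates and at 47.3 and 59.0 in adults. The lower neonatal library was more than double the higher adult library. The difference was 1.30 on the log2 scale (SE 0.110, edgeR adjusted p = 2.2e-05), or 2.46-fold, and it was 1.05 and still called with library size in place of TMM. Plxna3, a partner of Nrp2 for Sema3f, was also higher in neonates, at 47.6 and 45.7 against 32.5 and 32.1 normalised CPM (log2 fold change 0.53, SE 0.0887, edgeR adjusted p = 0.00082). The sequence before the start of Plxnb3 is shown as that of the plexin with the lowest p. It holds the 250 bases at chrX:156646624-156646873 (GRCr8, plus strand, RefSeq), 5′ to 3′, and none of the 5 motifs searched was found, so it has no capitals.
Plxnb3 start: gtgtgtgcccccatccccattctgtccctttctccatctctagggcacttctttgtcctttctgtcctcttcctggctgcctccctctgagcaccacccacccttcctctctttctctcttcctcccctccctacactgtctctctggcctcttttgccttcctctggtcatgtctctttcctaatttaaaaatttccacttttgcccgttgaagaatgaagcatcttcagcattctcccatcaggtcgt
Its share of G and C was 50.8%, close to the median of 51.2% over all windows, with 2 CpG dinucleotides.

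Lower in neonates were Plxna4, Plxna2 and Plxnb1. Plxna4, a Sema3a and Sema6 receptor of sensory and sympathetic neurons, stood on 42 and 60 counts in neonates and 117 and 155 counts in adults, or 1.18 and 1.67 against 2.86 and 3.90 normalised CPM. Plxna4 differed by -1.25 on the log2 scale (SE 0.347, edgeR adjusted p = 0.012), and without adult replicate 2 it was -1.03 with an edgeR adjusted p of 0.093. Plxna2 was at 23.1 and 21.7 against 33.9 and 33.7 normalised CPM (log2 fold change -0.59, SE 0.0955, edgeR adjusted p = 0.00067). Plxnb1 was at 44.9 and 50.7 against 68.3 and 83.6 normalised CPM (log2 fold change -0.67, SE 0.117, edgeR adjusted p = 0.0010), with fractional counts in 2 libraries, so its level is less certain.

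Plxnd1, the plexin of endothelial cells, had the most counts of the plexins, at 249 and 283 normalised CPM in neonates and 227 and 234 in adults. It did not pass (log2 fold change 0.21, SE 0.0879, edgeR adjusted p = 0.066), although the ages did not overlap, and its sign turned to -0.036 with library size in place of TMM. Plxnb2 had 148 and 148 against 173 and 159 normalised CPM (log2 fold change -0.17, edgeR adjusted p = 0.088), and Plxna1 was within 0.04 of 0 on the log2 scale (edgeR adjusted p = 0.76). Plxnc1, the receptor of Sema7a, had 7, 22, 34 and 56 counts and was not tested.

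Of the ephrins, those that passed were higher in neonates. Efnb3 (ENSRNOG00000010320), which is known as a midline barrier for axons in the spinal cord, was at 7.61 and 6.94 normalised CPM in neonates and at 3.08 and 2.31 in adults, or 271 and 250 counts against 126 and 92. Efnb3 differed by 1.43 on the log2 scale (SE 0.257, edgeR adjusted p = 0.0012), or 2.69-fold, and ranged from 1.21 to 1.62 with each library left out. Efna4 was at 5.53 and 5.97 normalised CPM in neonates and at 2.35 and 2.46 in adults, with close replicates at both ages. This is a log2 fold change of 1.26 (SE 0.254, edgeR adjusted p = 0.0024). Efna1, an ephrin of endothelial and epithelial cells, was at 37.5 and 39.5 against 25.6 and 26.5 normalised CPM (log2 fold change 0.56, SE 0.0930, edgeR adjusted p = 0.00076).

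The other ephrins did not pass. Efnb2, the arterial ephrin whose receptor Ephb4 marks veins, was at 53.9 and 55.5 normalised CPM in neonates and at 51.6 and 59.3 in adults, a log2 fold change of -0.019 (SE 0.0990, edgeR adjusted p = 0.87). Efnb1 overlapped likewise, at 44.8, 42.9, 41.5 and 51.1 normalised CPM (log2 fold change -0.079, SE 0.113, edgeR adjusted p = 0.56). Efna2 and Efna5 had log2 fold changes of -0.41 and -0.77, with edgeR adjusted p of 0.23 and 0.13 at levels from 0.590 to 5.35 normalised CPM. Efna3, with 0 to 4 counts, was not tested. The window before the start of Efna4 is shown as that of the called ephrin in the RefSeq table. It holds the 250 bases at chr2:177050714-177050963 (GRCr8, minus strand), 5′ to 3′ along the gene, with a CCAAT box on the opposite strand in capitals.
Efna4 start: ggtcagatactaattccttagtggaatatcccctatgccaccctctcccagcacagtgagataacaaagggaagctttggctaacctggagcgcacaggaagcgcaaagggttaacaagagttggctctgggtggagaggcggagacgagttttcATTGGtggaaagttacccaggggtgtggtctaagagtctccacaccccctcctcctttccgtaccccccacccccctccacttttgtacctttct

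The Eph receptors were split in both classes. Of the A class, Epha4, a receptor that binds ephrins of either class, was at 18.3 and 16.2 normalised CPM in neonates and at 33.2 and 32.7 in adults, a log2 fold change of -0.93 (SE 0.105, edgeR adjusted p = 9.1e-05). Epha5, a receptor of neurons, went the other way, at 14.5 and 14.4 normalised CPM in neonates and 10.6 and 8.52 in adults (log2 fold change 0.60, SE 0.164, edgeR adjusted p = 0.011). The latter lost its adjusted p without adult replicate 2 (0.11) and with library size in place of TMM (0.084). Epha3 had the most counts of its class, at 55.9, 53.3, 46.7 and 52.1 normalised CPM, and did not pass (log2 fold change 0.14, SE 0.0962, edgeR adjusted p = 0.22). Epha1, Epha2, Epha7 and Epha8 did not pass, with log2 fold changes from -0.68 to 0.14, and Epha10, with 0 to 13 counts, was not tested.

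Of the B class, Ephb3 was at 24.7 and 20.5 normalised CPM in neonates and at 11.1 and 11.6 in adults. Its log2 fold change of 0.99 (SE 0.137, edgeR adjusted p = 0.00027) was 1.99-fold, just short of the minimum for a call. It reached that minimum with TMM factors computed without mitochondrial and ribosomal protein genes (1.0005) and without neonate replicate 2 (1.14). With library size in place of TMM the log2 fold change of Ephb3 was 0.75, further short of the minimum. Ephb4, the venous receptor of Efnb2 and the member of the class with the most counts, was at 76.7 and 76.2 normalised CPM in neonates and at 99.3 and 89.8 in adults (log2 fold change -0.31, SE 0.0837, edgeR adjusted p = 0.011, or 0.058 without adult replicate 1). Ephb6, which lacks kinase activity, was at 24.6 and 21.3 against 32.2 and 38.0 normalised CPM (log2 fold change -0.61, SE 0.119, edgeR adjusted p = 0.0019). Ephb1 and Ephb2 overlapped between ages and did not pass, and Ephb2 has fractional counts in all 4 libraries, so reads were divided between transcripts or genes and its level is uncertain.

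The ratio between relatives of a family, or between a pair of class 3 semaphorins, differed between ages. The ratio of a pair of genes in one library does not depend on how that library is scaled, and only its change between ages is read here, since gene lengths differ. The pairs were chosen after their values had been seen, so the ratios are a description with no test. The log2 ratio of Plxnb3 to Plxnb1 counts was 1.49 and 1.41 in neonates and -0.53 and -0.50 in adults, a shift of 3.91-fold. For Robo2 to Robo1 it was 0.43 and 0.42 in neonates and -1.42 and -1.35 in adults, a shift of 3.50-fold. The log2 ratio of Epha5 to Epha4 was -0.33 and -0.17 in neonates and -1.65 and -1.94 in adults, and that of Ephb3 to Ephb6 was 0.0049 and -0.056 against -1.54 and -1.72. Plxna3 to Plxna2 went from 1.04 and 1.07 in neonates to -0.062 and -0.071 in adults. The ratio of Sema3f to Sema3d was 2.96 and 2.88 in neonates and 1.34 and 1.01 in adults on the log2 scale. In all of these pairs both neonatal libraries lay above both adult libraries. The genes of a pair did not all move in opposite directions: Robo2 did not pass the test, and the difference of Sema3f was lost with library size in place of TMM, so in these pairs the ratio mostly follows Robo1 and Sema3d.

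The 9 members not tested had less than 1 CPM in at least 3 of the 4 libraries. Ntn5 was at 0 counts in all of them, and a count of 0 allows up to 3 counts. Robo3, a receptor of commissural axons, had 19 and 21 counts in neonates and 2 and 4 in adults, and without a filter on low counts its log2 fold change was 2.83 (edgeR adjusted p = 0.038). Robo4, the Robo of endothelial cells, had 6, 11, 9 and 50 counts after rounding, fractional in all 4 libraries, so that adult replicate 2 stood apart and its level is uncertain. The blood endothelial marker Cdh5 was at 255, 238, 219 and 216 normalised CPM in the same libraries. Without the filter, Slit1, Dcc, Epha10, Robo4, Efna3, Plxnc1 and Unc5d had edgeR adjusted p from 0.0996 to 0.80.

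Other genes of the pathway were described from lists that hold no member. Among 32 further guidance ligands, adhesion molecules and co-receptors, 28 were tested, and 8 were called lower in neonates and 0 higher, with 14 lower and 2 higher by adjusted p. Among all genes tested, 13.2% were called lower and 7.68% higher, and 31.1% and 31.2% were lower and higher by adjusted p. One of the 8, Cntn2, an adhesion molecule of axons, was at 0.534 and 0.611 normalised CPM in neonates and reached the minimum level for testing through the adult libraries alone. The largest differences were those of Tenm4, Flrt1, Ntng2, Crim1 and Chl1. Tenm4, a teneurin that binds across synapses, was at 1.46 and 1.08 normalised CPM in neonates and at 6.54 and 8.02 in adults (log2 fold change -2.51, SE 0.291, edgeR adjusted p = 0.00010). Flrt1, of a family whose members bind Unc5 receptors and teneurin partners, was at 1.71 and 1.72 against 7.17 and 8.72 normalised CPM (log2 fold change -2.21, SE 0.257, edgeR adjusted p = 0.00011). Ntng2, a netrin-G that binds neither Dcc nor Unc5, was at 9.86 and 10.4 against 38.8 and 45.8 normalised CPM (log2 fold change -2.06, SE 0.118, edgeR adjusted p = 3.7e-06). Crim1, which binds growth factors, had a log2 fold change of -1.90 and Chl1, an adhesion partner of neuropilins, one of -1.81. Those higher in neonates were Ptprs, a phosphatase receptor for proteoglycans, at 0.55, and L1cam, an adhesion molecule of axons, at 0.27, which is about the size of the shift between scalings.

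Among 43 intracellular effectors, all tested, 5 were called lower and 2 higher in neonates, with 13 lower and 17 higher by adjusted p. The shares called (13.2% and 7.68% of all genes) and the share lower by adjusted p (31.1% of all genes) were near or below those of all genes, and nothing is read from them. The 17 of 43 higher by adjusted p were a larger share than the 31.2% of all genes, and that difference was not tested. The collapsin response mediator proteins, which carry semaphorin signals to microtubules, were split. Dpysl3 was at 48.0 and 48.8 normalised CPM in neonates and at 225 and 185 in adults (log2 fold change -2.08, SE 0.103, edgeR adjusted p = 2.1e-06). Dpysl2 was at 63.8 and 60.5 against 195 and 170 normalised CPM (log2 fold change -1.55, SE 0.0896, edgeR adjusted p = 3.7e-06). Crmp1, Dpysl4 and Dpysl5 were higher in neonates by adjusted p, with log2 fold changes of 0.47, 0.46 and 0.53. Srgap3, which joins Robo receptors to Rac, was at 11.5 and 12.3 normalised CPM in neonates and at 33.8 and 35.8 in adults (log2 fold change -1.54, SE 0.107, edgeR adjusted p = 8.3e-06), whereas Srgap1 and Srgap2 did not pass. Trio and Arhgef12, exchange factors that act below netrin and plexin-B receptors, had log2 fold changes of -1.16 and -1.15. Called higher in neonates were Fes, a kinase that binds plexins, at 1.21 (SE 0.0938, edgeR adjusted p = 1.4e-05), and Mical1, an enzyme that oxidises actin below plexins, at 1.14 (SE 0.109, edgeR adjusted p = 3.9e-05). With library size in place of TMM neither of these last 2 was called.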

How the data were processed

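RNA was sequenced from pooled CBs of 2 neonatal and 2 adult libraries, grouped by the sample titles. The values deposited by the authors are estimated counts. Reads had been trimmed, aligned with STAR and quantified with Salmon 1.5.2 (version from the submitters' processing notes) on the rat build Rnor_6.0, and transcripts were summed to genes with no normalization or filter. RNA was selected by poly A+ and read as fragments along each transcript. A longer transcript therefore gives more counts at the same level, so levels were compared between ages and not between genes.

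Counts were rounded. Of 32883 genes, 636 annotated as other than protein-coding in a RefSeq table of GRCr8 were removed by symbol, and the 13843 that reached 1 CPM in 2 or more libraries entered the test with edgeR 4.0.16 in R 4.3.3 (TMM, quasi-likelihood test, no covariates, Benjamini-Hochberg adjustment). The p-values measure the spread between these libraries. Counts of replicates differed by 29.0 (neonates) and 13.3 (adults) in chi-square per degree of freedom, far above sampling noise. Fractional counts made up 5.02% to 6.19% of genes per library.

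Alternatives were DESeq2 1.42.0, limma-voom (limma 3.58.1), RLE size factors, library size alone, TMM without mitochondrial and ribosomal protein genes, no filter or a mean of at least 5 CPM, all biotypes, a replicate block and each library left out. The procedure was tested on simulated data. Named genes are every member called, the member of each family with the most counts, relatives that differed in direction, and, of the other pathway genes called in each direction, the 5 with the largest differences (only 2 were called higher). Other members and pathway genes were named after their values had been seen. The members, gene lists and tests were chosen with earlier results of these data known.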

Additional observations from a re-analysis of the deposited data

How the results depend on the processing

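The numbers of members called higher (3) and lower (8) in neonates did not change with DESeq2, limma-voom, RLE size factors, all biotypes or the replicate block. With library size alone, 15 members were called lower and 0 other pathway genes higher. With a mean of at least 5 CPM, 45 members were tested, of which 1 was called higher, 4 lower and 5 higher by adjusted p alone. Without a filter, 4 members were called higher. With each library left out in turn, 5 to 9 members were called lower (5 without adult replicate 2, when Sema3a and Plxna4 lost their calls and Ntn4 was not tested), 3 to 4 higher, and 1 to 2 other pathway genes higher.

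The replicate numbers do not pair the libraries: across 13843 genes, the difference between replicates 1 and 2 in neonates and that in adults had a correlation of -0.015. With the replicate block, 9 members in place of 8 were higher in neonates by adjusted p alone, and Sema5b turned to -0.065 on the log2 scale. Sema5b was also at -0.0796 with limma-voom.

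None of the members that turned sign had passed the test. With library size alone, the log2 fold changes of 9 members turned, to -0.19 for Sema5b, -0.027 for Slit2, -0.18 for Sema6d, -0.021 for Sema4f, -0.11 for Epha2, -0.14 for Sema6c, -0.036 for Plxnd1, -0.15 for Robo2 and -0.10 for Epha3. With each library left out in turn, the log2 fold change of Sema5b ran from -0.72 to 0.57, that of Sema6d from -0.056 to 0.13, Efnb1 from -0.25 to 0.052, Epha2 from -0.022 to 0.26, Ephb2 from -0.24 to 0.13, Epha8 from -0.49 to 0.052, Efnb2 from -0.15 to 0.058, Plxna1 from -0.16 to 0.039 and Sema4b from -0.45 to 0.0050. The cause of these changes was not tested. With 2 libraries per age, members at few counts (Ntn4, Sema3a, Plxna4, Unc5a) rest most on single libraries.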
